A study of Mus musculus with 22 samples.

Results

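Gene expression in the hippocampus was compared between TgproNGF#3 and wild-type (WT) mice aged 12 months, on 3 arrays per genotype out of 22 in the whole series. The arrays were chosen by their labels alone, as those of the 12-month TgproNGF#3 and WT hippocampus, and 1 array holds the RNA of 1 mouse. All 6 mice were females of the C57Bl/6xDBA/2 strain, had received no treatment, and gave the hippocampus of the right hemisphere. TgproNGF#3 mice carry a furin-resistant form of the cDNA that gives the line its name, followed by an IRES and EGFP, under the Thy1.2 promoter, which drives expression in neurons of the adult brain. All transgenic mice are of 1 line, #3, so that effects of the transgene and of its insertion site cannot be told apart. The 16 younger arrays of the series (1 and 3 months, 4 mice per genotype and age) come from males, and each age lies on a slide of its own.

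Neurotrophins are made as precursors that furin and related proteases cut to the mature form. The mature forms act through Trk receptors, whereas the uncut precursors bind the p75 neurotrophin receptor (Ngfr) together with sortilin (Sort1). The dissected hippocampus contains neurons and glia and also the tissue around them. Leptomeningeal fibroblasts, which cover the brain surface and line the hippocampal fissure, make fibrillar collagens, transporters such as Slc6a13 and the retinoic acid enzyme Aldh1a2. Border macrophages live in the meninges and along vessels, and the choroid plexus lies against the hippocampus in the ventricle. In bulk tissue, fewer cells of a type and less RNA per cell cannot be told apart.

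Levels are given on the log2 scale after subtracting, for each array, the 75th percentile over its spots well above background, so a level of 0 is that percentile and a difference of 1 is 2-fold. A probe was called at an unadjusted limma p below 0.05 with a log2 fold change (log2 FC, TgproNGF#3 minus WT) above 1 or below -1, the thresholds of the study. Of 34064 probes tested, 444 were called (1.3%), 106 up (0.311%) and 338 down (0.992%), and the genotypes were fully separated in 5295 (15.5%). After Benjamini-Hochberg adjustment of the limma p-values 0 probes were below 0.05 (3084 probes, 9.05%, at an unadjusted p below 0.05, smallest adjusted p = 0.177), and with 3 mice against 3 a two-sided exact permutation test cannot go below 0.1. All calls below therefore rest on unadjusted p-values. With 1 probe per gene, the brightest, 57 of 15726 genes were called up (0.362%) and 141 down (0.897%).

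The endogenous gene of the transgene's promoter and the neurotrophin system were examined first, and none of these values checks a genotype label. Thy1, whose promoter drives the transgene, differed by -0.06 (standard error 0.135), and by 0.09 when the arrays were aligned to their medians. Ngfr had a log2 FC of 0.10 (standard error 0.270). The brightest of 3 Sort1 probes had 0.32 (standard error 0.127), below the fold threshold, and the others -0.04 and -0.21. None of the 23 genes tested of the list of neurotrophins, their receptors and processing enzymes was called.

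One WT array decides much of what is called. On the slide of 12 months the 3 TgproNGF#3 arrays share an array row with WT replicate 3, and WT replicates 1 and 2 lie in the other row. Over the 31761 probes with a value on all 6 arrays, WT replicate 3 correlated by 0.9949, 0.9908 and 0.9915 with the 3 TgproNGF#3 arrays and by 0.9863 and 0.9868 with WT replicates 1 and 2. Of 99 called rises measured on all 6 arrays, 90 (90.91%) had WT replicate 3 nearer to the TgproNGF#3 mean than to the other 2 WT mice, as did 141 of 283 falls (49.82%) and 65.36% of all 31761 probes. Only 5 of these rises but 84 of these falls also differed by more than 2-fold between the TgproNGF#3 mean and WT replicate 3. Without WT replicate 3, 995 probes were called (312 up, 683 down), of which 263 passed the adjustment in limma, and with the array row as a block 198 were called (18 up, 180 down). Row and genotype cannot be told apart for the other 5 arrays, and the fit with the row as a block estimates the TgproNGF#3 mean minus WT replicate 3 alone. That difference is given below for the genes and lists where it bears most on the reading. The labels were kept as given, and whether the library labelled WT replicate 3 carries the right label was not tested.

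**Figure D1:**
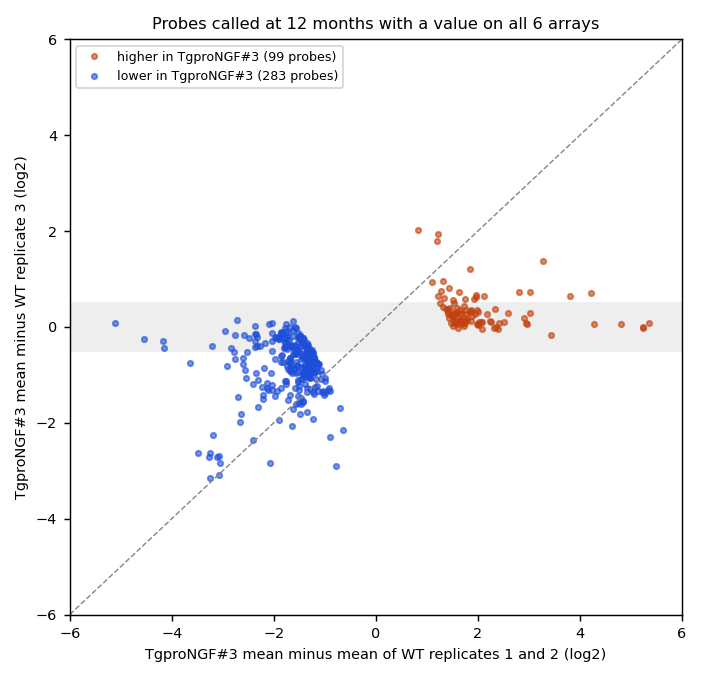
Each point is a probe called at 12 months with a value on all 6 arrays; the x axis is the TgproNGF#3 mean minus the mean of WT replicates 1 and 2 and the y axis the TgproNGF#3 mean minus WT replicate 3, both in log2 units, and the grey band marks 0.5 around 0. Of 99 rises 77 lie within the band, against 88 of 283 falls.

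The clearest fall was that of Vill, the gene of a villin-like actin-binding protein, together with collagens and other genes of the meninges. Before the values, the start regions of 4 of these genes are shown, since they lay lower on the 3 TgproNGF#3 arrays of 12 months than on all 19 other arrays of the series by more than 0.5. They are RefSeq sequences of the build GRCm38.p6, each from 250 bases before the gene's start to 50 after it, all on the plus strand. Capitals mark CCAAT, its reverse complement ATTGG, and TATAAA, searched on both strands. The regions are chr9:119052528-119052827 (Vill), chr1:45311288-45311587 (Col3a1), chr6:4505368-4505667 (Col1a2) and chr6:121300038-121300337 (Slc6a13).
Vill promoter: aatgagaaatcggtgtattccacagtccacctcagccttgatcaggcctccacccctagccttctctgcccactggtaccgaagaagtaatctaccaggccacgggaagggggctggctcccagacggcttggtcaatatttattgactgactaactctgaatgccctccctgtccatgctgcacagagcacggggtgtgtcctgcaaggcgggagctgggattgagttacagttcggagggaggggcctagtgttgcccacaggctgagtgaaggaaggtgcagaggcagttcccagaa
Col3a1 promoter: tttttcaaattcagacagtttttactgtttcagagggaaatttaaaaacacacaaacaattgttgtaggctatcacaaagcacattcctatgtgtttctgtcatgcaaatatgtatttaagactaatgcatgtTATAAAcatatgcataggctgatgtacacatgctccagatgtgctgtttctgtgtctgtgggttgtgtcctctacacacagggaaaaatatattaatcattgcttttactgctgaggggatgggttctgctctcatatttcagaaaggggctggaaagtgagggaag
Col1a2 promoter: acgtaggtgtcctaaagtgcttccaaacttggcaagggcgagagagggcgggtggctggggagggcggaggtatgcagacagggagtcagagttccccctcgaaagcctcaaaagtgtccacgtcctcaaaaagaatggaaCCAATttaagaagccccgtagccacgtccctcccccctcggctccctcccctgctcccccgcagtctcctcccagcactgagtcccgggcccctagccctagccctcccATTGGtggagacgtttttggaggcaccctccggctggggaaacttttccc
Slc6a13 promoter: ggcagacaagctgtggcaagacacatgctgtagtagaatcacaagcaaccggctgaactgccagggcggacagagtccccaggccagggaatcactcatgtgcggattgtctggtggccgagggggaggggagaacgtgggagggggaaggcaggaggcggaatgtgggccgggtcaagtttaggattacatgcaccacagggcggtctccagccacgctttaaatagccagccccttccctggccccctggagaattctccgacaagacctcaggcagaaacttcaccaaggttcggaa

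Col1a2 holds CCAAT 109 bases before the start and ATTGG at the start, Col3a1 holds TATAAA 117 bases before it, and the other 2 windows hold neither motif. Of 11 genes that lay lower by this margin (Vill, Col3a1, Asgr1, Pf4, Aldh1a2, Col1a2, Btrc, Mrc1, Slc6a13, Col1a1 and Gjb2), 9 had a promoter in the table. CCAAT was found in 5 of the 9 and TATAAA in 1, against 37.4% and 13.6% of all 32851 promoters of that length.

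Vill read -5.45, -6.19 and -5.08 in TgproNGF#3 and -2.46, -2.53 and -2.48 in WT mice. The WT mice lie within 0.1 of each other, WT replicate 3 included, and the groups are far apart. The log2 FC of -3.08 (standard error 0.268) had the lowest p of all probes (limma adjusted p = 0.177). The highest TgproNGF#3 mouse of 12 months lay 2.11 below the lowest of the other 19 arrays.

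Collagens fell in part. Of 35 collagen chains tested, 6 were called down (17.1%, against 0.897% of all genes) and 0 up, 24 were lower and 11 higher, and the median log2 FC was -0.37 against 0.06 for all genes. Col3a1, a fibrillar collagen of loose connective tissue, read -5.01, -5.54 and -5.05 in TgproNGF#3 and -3.43, -3.03 and -3.75 in WT mice. The groups did not overlap, and the log2 FC was -1.80 (standard error 0.231, limma adjusted p = 0.349). Col1a2, which joins Col1a1 in type I collagen, was at -1.04, -1.64 and -1.25 in TgproNGF#3 and 0.12, 0.69 and 0.21 in WT mice (log2 FC -1.65, standard error 0.219, limma adjusted p = 0.349). Its partner Col1a1 fell by 1.5 on the log2 scale (limma adjusted p = 0.501), and here too the lowest WT mouse, at -1.65, was above the highest TgproNGF#3 mouse at -2.58. Col6a3 (log2 FC -1.58), Col9a1 (-1.14) and Col6a2 (-1.03) completed the calls. A weaker separation was seen for these 3: Col6a3 of TgproNGF#3 replicate 1 (-2.36) lay among the WT mice, 1 of 2 Col9a1 probes was not called (-0.03), and WT replicate 3 read -3.54 for Col6a2 beside -3.61 in TgproNGF#3 replicate 3. Col6a3 kept its sign but not its call without any 1 of TgproNGF#3 replicate 2 (-1.14), TgproNGF#3 replicate 3 (-1.27), WT replicate 1 (-1.48) or WT replicate 2 (-1.48), and Col6a2 without TgproNGF#3 replicate 2 (-0.84), WT replicate 1 (-0.98) or WT replicate 2 (-0.80).

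The median over the 35 collagens per array, relative to the WT mean, did not separate the genotypes, with -0.15, -0.69 and 0.08 in TgproNGF#3 and -0.17, 0.23 and -0.07 in WT mice. Of 15 laminins, nidogens and perlecan, proteins of the basement membrane, Lama1 (-1.18) and Nid1 (-1.15) fell (0.897% of all genes were called down). Of the 15, 12 were lower (median -0.47). Their median per array did not separate the genotypes either, with -0.51, -0.80 and -0.04 in TgproNGF#3 and -0.15, 0.35 and -0.10 in WT mice. Lama1 of WT replicate 3 (-2.0) lay closer to TgproNGF#3 (-2.46, -2.72, -2.26) than to the other WT mice (-1.13, -0.77). Both fell short of the fold threshold without WT replicate 2 (-0.91 for Lama1, -0.92 for Nid1). Of 49 other matrix proteins of fibroblasts, 5 fell: the small proteoglycans Fmod (-1.85) and Omd (-1.44), Mfap5 of elastic microfibrils (-1.28), Postn (-1.21) and the calcification inhibitor Mgp (-1.08). The 49 had a median of -0.22, and their medians per array overlapped between the genotypes too. Fmod read -3.74, -4.75 and -3.97 in TgproNGF#3 and -2.24, -1.83 and -2.83 in WT mice, and Mfap5 was within 0.13 across the TgproNGF#3 mice (-5.92, -6.04, -5.99) and at -4.65, -4.47 and -4.98 in WT mice. One of the 49, Fbln7, rose by 1.20, but on 1 of 2 probes, where WT replicate 3 (-2.83) read like the TgproNGF#3 mice (-2.83, -2.63, -2.78). The second probe gave -0.17.

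Leptomeningeal markers other than matrix proteins fell as well. Of 19 tested, 7 were called down (36.8%) and 1 up, 18 were lower, and the median log2 FC was -0.83 (-0.53 against WT replicate 3 alone, -0.96 against the other 2 WT mice). The called falls were the protease inhibitor chain Itih2 (-1.85), the transcription factor Foxc2 (-1.64), Aldh1a2 (-1.55), the GABA and taurine transporter Slc6a13 (-1.42), the gap junction protein Gjb2 (-1.39), the organic anion transporter Slc22a6 (-1.27) and Islr (-1.17). Aldh1a2 read -2.36, -2.94 and -2.60 in TgproNGF#3 and -1.03, -0.71 and -1.50 in WT mice, and the lowest WT mouse of Slc22a6 (-1.69) was well above its highest TgproNGF#3 mouse (-2.56). For Slc6a13 the levels were -1.65, -2.67 and -1.61 against -0.54, -0.08 and -1.05. WT replicate 3 lay between the groups for Slc6a13, and against it alone the difference was -0.93. Slc6a12, the neighbouring gene and a betaine and GABA transporter, fell by 1.64 with 1 TgproNGF#3 array without a value. Itih2 rested more on the other WT mice, with -4.82 in WT replicate 3 beside -3.04 and -2.62. Twist1, a transcription factor of mesenchymal cells, went the other way: it rose by 1.36, with -4.17, -4.17 and -3.85 in TgproNGF#3 and -6.18, -5.44 and -4.64 in WT mice. Without WT replicate 1 its log2 FC was 0.98 and no longer called. Tbx15, a further marker of this list, entered no fit, since it was well above background on all WT arrays and on none of the 3 TgproNGF#3 arrays. It was at least 2.23-fold lower in TgproNGF#3 mice, taking the detection limit of each array as the TgproNGF#3 level.

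The 3 called border macrophage genes were the chemokine Pf4 (-1.18), the carbonyl reductase Cbr2 (-1.15) and the mannose receptor Mrc1 (-1.01), out of 7 tested (42.9%), and all 7 were lower. Mrc1 read -4.07, -4.70 and -4.18 in TgproNGF#3 and -3.22, -3.29 and -3.42 in WT mice. Its fold change was close to the threshold, and it missed it without TgproNGF#3 replicate 2 (-0.82), WT replicate 1 (-0.97) or WT replicate 2 (-0.9999), or against WT replicate 3 alone (-0.90). Pf4 was also short of it without WT replicate 2 (-0.99) and against WT replicate 3 alone (-0.77). Lyve1, another defining marker, was measured on 2 arrays of each genotype, between -6.24 and -5.99, and had a log2 FC of -0.20, and Cd163 was not tested. Microglia, the macrophages of the brain tissue itself, gave 0 calls among 19 genes and a median of -0.18 (-0.10 against WT replicate 3, and -0.03 when the arrays were aligned to their medians).

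Markers of the choroid plexus varied widely between single mice. Of 22 markers of the choroid plexus epithelium all were lower in the TgproNGF#3 mean, none was called, and the median was -0.88. Per array their median relative to the WT mean was -1.86, -1.85 and 1.27 in TgproNGF#3 and -1.57, 1.67 and -0.19 in WT mice. Ttr, the most abundant of them, read 2.81, 2.91 and 6.89 in TgproNGF#3 and 2.98, 7.42 and 5.59 in WT mice, a spread of over 4 on the log2 scale within each genotype. The part of choroid plexus, and of attached meninges, in the differences above was not tested. Of 12 ependymal genes 1 fell, the cilia gene Ak7 (-1.04), and all 12 were lower (median -0.60, and -0.22 with the array row as a block). Ak7 had no value in WT replicate 3, and it fell short of the fold threshold without TgproNGF#3 replicate 2 (-0.94) or replicate 3 (-0.85). Endothelial genes, 20 tested, gave 0 calls and a median of -0.01.

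**Figure D2:**
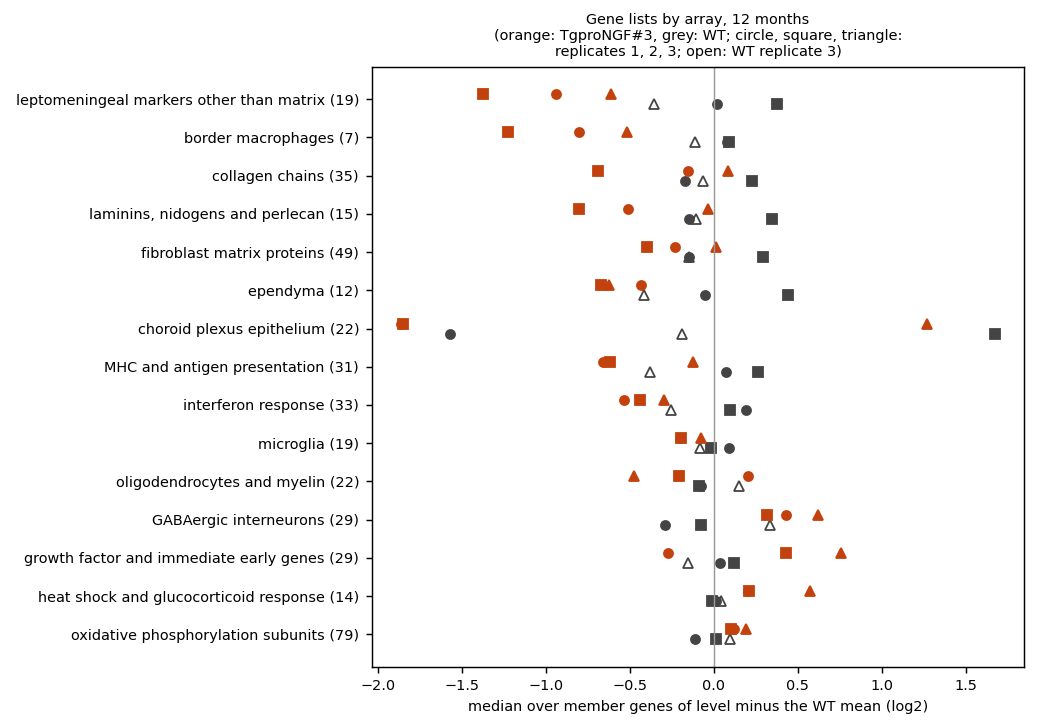
Each marker is 1 array of 12 months and gives, on the x axis, the median over the genes of a list of the level minus the WT mean (log2); the number of genes tested stands in parentheses, orange marks TgproNGF#3, grey WT, circle, square and triangle replicates 1, 2 and 3, and the open triangle WT replicate 3. Leptomeningeal and border macrophage genes of the 3 TgproNGF#3 mice lie below all WT mice, while choroid plexus genes run from -1.86 to 1.67 across both genotypes.

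Antigen presentation genes and interferon-induced genes lay lower in the TgproNGF#3 mean, and WT replicate 3 was the lowest WT mouse for the median of both lists. The median per array separated the genotypes for the interferon list only. For antigen presentation it was -0.13 in TgproNGF#3 replicate 3 and -0.38 in WT replicate 3. MHC class II molecules present peptides to T cells and are carried in the brain mostly by border macrophages, dendritic cells and activated microglia. H2-Ab1, the class II beta chain, fell on both of its probes, by 2.28 and 1.99 on the log2 scale. The first probe read -3.88, -3.98 and -2.69 in TgproNGF#3 and -0.61, -1.04 and -2.05 in WT mice (standard error 0.450, limma adjusted p = 0.549), and the groups did not overlap. On the second probe WT replicate 3 and TgproNGF#3 replicate 3 both read -2.46. Cd74, the invariant chain that escorts class II molecules, fell by 1.35, with TgproNGF#3 replicate 3 (-2.62) among the WT mice (-2.55, -1.79, -2.91). Without TgproNGF#3 replicate 1 (-1.09), TgproNGF#3 replicate 2 (-1.04) or WT replicate 2 (-1.04) Cd74 was not called. H2-Eb1, the second class II beta chain, had a log2 FC of -0.95 (standard error 0.371). H2-Ob, a class II chain that restrains peptide loading, rose by 1.51 on 1 probe (-4.76, -3.07 and -3.46 in TgproNGF#3, -5.42, -6.03 and -4.39 in WT mice) and had 0.14 on the other. Among the class I genes H2-T23 (-1.29), Gm11127 (-1.32) and H2-Q8 (-1.28) fell and Gm8909 rose (1.68). H2-T23 read -0.74, -1.30 and -0.75 in TgproNGF#3 and 0.96, 0.73 and -0.61 in WT mice, so that WT replicate 3 sat just above the TgproNGF#3 range. Class I genes are close copies of each other, and a probe can bind more than 1 of them.

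Over the 31 genes of MHC and antigen presentation tested, 5 were called down and 1 up, 26 were lower, and the median was -0.35. It was -0.62 against WT replicates 1 and 2 and -0.0007 against WT replicate 3. The 33 interferon-induced genes gave 0 calls, since none reached a 2-fold change, although 15 had an unadjusted limma p below 0.05 (8.18% of all genes) and 29 were lower (median -0.43, and -0.14 against WT replicate 3). All TgproNGF#3 mice were below all WT mice in 15 of the 33, and the genotypes were fully separated in 16% of all genes. The transcription factor Irf7 had a log2 FC of -0.97 (standard error 0.270). The antiviral RNA-binding protein Ifit1 had one of -0.91 (standard error 0.191), with -5.54, -5.26 and -5.90 in TgproNGF#3 and -4.57, -4.58 and -4.83 in WT mice. S100a8 (-1.69) and S100a9 (-1.42), adjacent genes of a calcium-binding pair abundant in neutrophils, fell with overlapping groups. Some probes were well above background on all 3 arrays of 1 genotype and on none of the other, 30 probes in WT and 80 in TgproNGF#3 mice, with a bound over 2-fold for 12 and 3 of them. Ltf, the lactoferrin of neutrophil granules, was found in WT mice alone, at -5.20, -5.88 and -6.51, and was at least 2.10-fold lower in TgproNGF#3 mice. C5ar2, a receptor of complement C5a, read -4.21, -4.71 and -6.18 in WT mice (at least 3.73-fold lower in TgproNGF#3 mice), and Tnfrsf17, a receptor of plasma cells, -5.56, -5.26 and -6.21 (at least 2.39-fold). WT replicate 3 was the lowest WT mouse for all 3, and no bound against it alone was computed. In the other direction Klk1b26, a kallikrein, was at least 2.00-fold higher in TgproNGF#3 mice.

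The 10 largest rises with groups that did not overlap were mostly shared with WT replicate 3. Of these, 9 are described here: Sdc4 (2.26), a heparan sulfate proteoglycan of the cell surface, Polr1b (2.11), a subunit of RNA polymerase I, Map1b (2.00), which binds microtubules, the sodium bicarbonate transporter Slc4a10 (1.82), the translation initiation factor Eif2s1 (1.64), the cGMP phosphodiesterase Pde5a (1.46), the chemokine Ccl17 (1.36), Twist1 and the growth factor Fgf10 (1.33). Sdc4 was at 0.13, 0.76 and 1.51 in TgproNGF#3 mice, at -2.08 and -2.36 in WT replicates 1 and 2 and at 0.07 in WT replicate 3. The 4 mice of the shared row thus stand together, 1.48 above all 18 other arrays of the series. Fgf10 read -0.87, -1.0 and -1.02 in TgproNGF#3, -1.19 in WT replicate 3 and -3.00 and -2.71 in the other 2. Pde5a differed from the rest, as WT replicate 3 (-4.01) read like WT replicate 2 (-4.07) and below the TgproNGF#3 mice (-1.78, -2.15, -2.29). Here WT replicate 1, at -2.51, was the WT mouse close to the TgproNGF#3 range. Against WT replicate 3 alone, which is what the row as a block leaves, the other 8 were no longer called, with differences from 0.08 for Eif2s1 to 0.73 for Sdc4. Without WT replicate 1, the values of Eif2s1 (1.26), Map1b (1.53), Polr1b (1.56) and Fgf10 (0.98) were no longer called, without WT replicate 2 those of Eif2s1 (1.24) and Map1b (1.56), and without TgproNGF#3 replicate 3 those of Eif2s1 (1.57) and Map1b (1.93).

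Among the 10 largest falls of genes whose groups did not overlap, Vill, Asgr1, Mdfi, Smco3 and 1 of the 2 H2-Ab1 probes differed by more than 2-fold from WT replicate 3 as well (-0.77 for the other H2-Ab1 probe), and 5 differed from it by less. Asgr1, a subunit of the asialoglycoprotein receptor, read -4.24, -5.27 and -4.93 in TgproNGF#3 and -2.72, -2.47 and -3.39 in WT mice (log2 FC -1.95, standard error 0.322). Mdfi, an inhibitor of myogenic transcription factors, read -5.59, -5.86 and -6.80 against -4.42, -3.95 and -4.15 (log2 FC -1.91, standard error 0.310, limma adjusted p = 0.510 for both). In both the WT mice stand above every TgproNGF#3 mouse. The largest of these falls, of the noncoding RNA 5031434O11Rik (-3.11), came from -4.85, -5.14 and -5.03 in TgproNGF#3 and -0.55, -0.38 and -4.76 in WT mice. WT replicate 3 thus differed from its group by more than 4 on the log2 scale, and the difference from it alone was -0.24. WT replicate 3 was also nearer to the TgproNGF#3 mice than to the other WT mice for Ankrd33b (-2.91, and -0.44 from WT replicate 3), Adamts4, a protease that cuts aggrecan (-2.88 and -0.30), Srarp (-2.06 and -0.67) and Gh, growth hormone (-2.03 and -0.43). Adamts4 fell on both probes. Its values without TgproNGF#3 replicate 3 (-2.82), WT replicate 1 (-1.96) or WT replicate 2 (-2.51) were not called, nor were those of 5031434O11Rik without WT replicate 1 (-2.44) or WT replicate 2 (-2.35), of Ankrd33b without WT replicate 1 (-2.44) and of Gh without TgproNGF#3 replicate 3 (-1.87). The remaining fall, of Smco3 (-2.40), split the TgproNGF#3 mice: replicate 1, at -3.01, lay near the WT mice (-2.66, -2.78, -2.78) and replicates 2 and 3 at -6.45 and -5.95. It was not called without replicate 2 (-1.74) or replicate 3 (-1.99) of TgproNGF#3.

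**Figure D3:**
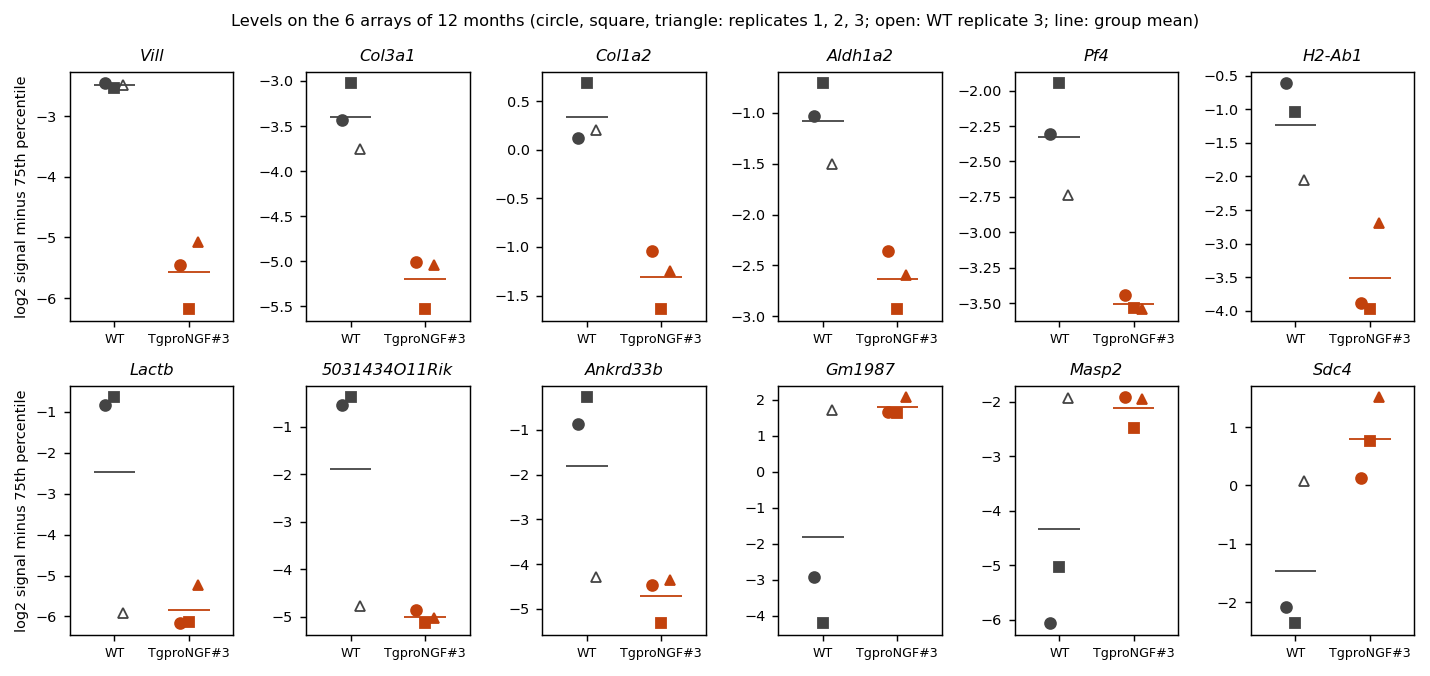
Levels (log2, relative to the 75th percentile of the array) of 12 called genes on the 6 arrays of 12 months (circle, square and triangle for replicates 1, 2 and 3, open triangle for WT replicate 3, line for the group mean). Vill separates the genotypes on all arrays, from -5.08 and below in TgproNGF#3 to -2.53 and above in WT mice, while for Sdc4 and 5031434O11Rik WT replicate 3 lies beside the TgproNGF#3 mice.

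Several of the largest differences shared with WT replicate 3 were seen by 1 probe of a gene and not by another. Apart from Map1b and Eif2s1, the genes of this paragraph fall outside the rule for the largest changes and were chosen after their values were seen. Of 250 genes with a called probe, 89 have another probe that was tested. In 45 of the 89 the called probe lay within 0.5 of WT replicate 3, and there the brightest other probe had a median of 0.19 in the direction of the call, against 1.27 for the called one. In the 20 genes that differed from WT replicate 3 by more than 2-fold as well, it had a median of 0.47 against 1.54. In the 21 genes between these bounds it had 0.14 against 1.20, so a weaker other probe was not particular to the shared genes. Only the called probe had to pass the fold threshold, so a smaller value on the other probe follows in part from the selection. Lactb, a mitochondrial protein, is an example: 1 probe read -6.17, -6.14 and -5.23 in TgproNGF#3, -0.83 and -0.64 in WT replicates 1 and 2 and -5.92 in WT replicate 3, while a second probe annotated to the same transcript had a log2 FC of -0.17. Which isoform or strand each probe of these genes reads was not checked. Rbbp9, which binds the retinoblastoma protein, rose by 3.48 on 1 probe (0.21, 0.06 and 0.27 in TgproNGF#3, 0.20 in WT replicate 3, -5.04 and -5.07 in the others) and had -0.28 on the second. The same contrast was found for Map1b (2.00 and 0.09), Eif2s1 (1.64 and 0.19) and Timm9, a mitochondrial import protein (-1.99 and 0.15). Gm1987, a copy of the chemokine Ccl21, had the largest called rise of a gene with a symbol among the cytokines and chemokines (3.60), with 1.67, 1.62 and 2.07 in TgproNGF#3, 1.71 in WT replicate 3 and -2.93 and -4.22 in WT replicates 1 and 2. It was not called without any 1 of the other 5 arrays, with values from 2.40 to 3.68, nor with the row as a block (0.08).

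Some called probes set the 4 arrays of the shared row apart from the younger mice as well. In 43 of the 382 called probes with a value on all 6 arrays, the 3 TgproNGF#3 arrays and WT replicate 3 lay above every other array of the series that measured the probe, and in 64 below, by more than 1 in 16 and 11 probes. These probes had been called on arrays of the same slide, and no such share over all probes is given here. The counts thus do not measure how far the 4 arrays stand apart. For Lactb the 16 younger arrays averaged -0.35, and those in the same array row as the 4 shifted arrays -0.42. Younger mice of both genotypes occupy both rows. For Rbbp9 and Polr1b, however, levels as low as those of WT replicates 1 and 2 also occurred on single younger arrays, with Polr1b at -5.09 in WT replicate 1 of 1 month. The part of the array row, of the RNA and of differences between the mice in these levels was not tested.

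**Figure D4:**
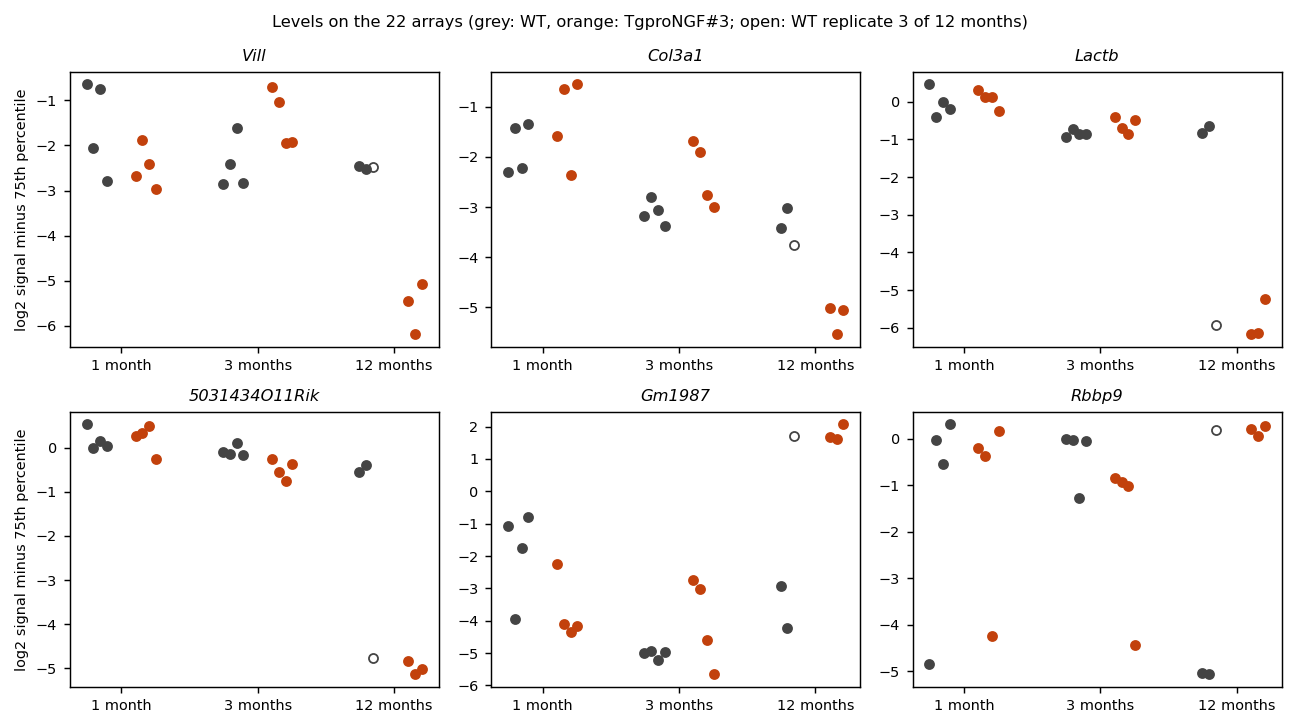
Levels (log2, relative to the 75th percentile of the array) of 6 genes on all 22 arrays, grouped by age and genotype (1 point per array). Vill and Col3a1 are lowest on the 3 TgproNGF#3 arrays of 12 months, whereas Lactb, 5031434O11Rik and Gm1987 are shifted on those arrays and on WT replicate 3 of 12 months (open), and Rbbp9 is low on WT replicates 1 and 2 and on 3 younger arrays.

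Many called probes report noncoding intervals that are probed as genome regions (build mm9 in the file headers). Of 7060 such probes 0.269% were called up and 1.52% down. Where several probes of 1 region were tested, they serve as repeat measurements in the same mice. All 4 probes of chr3:96074625-96086375 on the plus strand rose, by 1.71 to 3.49, but WT replicate 3 read like the TgproNGF#3 mice for each. The brightest had -1.27, -0.90 and -0.85 in TgproNGF#3, -1.01 in WT replicate 3 and -5.93 and -6.55 in the other WT mice. In chr5:23195569-23218551 (minus strand) 3 of 4 probes rose and 1 had -0.68, and in chr6:126766225-126771309 (minus strand) 3 of 5 rose by up to 1.63, again with WT replicate 3 nearer to TgproNGF#3. On chr17:46972160-46997919 (minus strand) all 9 probes were lower, and 3 fell. The strongest of them read -2.31, -2.72 and -3.01 in TgproNGF#3 and -1.16, -1.27 and -1.07 in WT mice, with WT replicate 3 the highest (log2 FC -1.51, standard error 0.195). For the other 8, WT replicate 3 was the lowest WT mouse. On chr14:73729977-73751877 (minus strand) all 7 probes were lower and 4 fell, and WT replicate 3 was the lowest WT mouse in the 6 probes with a value for it. Lgals4, an intestinal galectin, is the coding gene with 3 of 3 probes called (-1.67, -1.57 and -1.22), also shared with WT replicate 3.

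By number, a stretch of chromosome 2 held more called interval probes than any other. Of 613 windows of 3 Mb with an interval probe, 11 held 3 or more called ones, and the window from 174 to 177 Mb held 22 of 63 (34.9%), all down, in 14 target intervals. The window from 72 to 75 Mb of chromosome 14, with the interval named above, had a higher share, 6 of 13 (46.2%), and a median of -1.11. Over the 63 probes of the chromosome 2 window 58 were lower and the median log2 FC was -0.93. In chr2:175640275-175701875 (plus strand) 3 of 4 probes fell, the brightest from 0.92, 1.04 and 0.46 in WT to 0.35, -0.74 and -0.36 in TgproNGF#3 mice. On the minus strand of that interval 3 of 4 fell too, the largest by 2.06, with -3.72, -5.73 and -5.66 in TgproNGF#3 and -2.43, -2.54 and -3.96 in WT mice. TgproNGF#3 replicates 2 and 3 stand further below the WT mice than replicate 1: they were lower than every WT value in 40 of 48 probes that could be compared, while TgproNGF#3 replicate 1 was within the WT range in 32 of 59. The window was picked for its called falls, so values below the WT mice follow in part from that choice. No such share over all probes is given here. Per array the median relative to the WT mean was -0.43, -1.12 and -1.12 in TgproNGF#3 and 0.19, 0.21 and -0.37 in WT mice. TgproNGF#3 replicate 1 was also within the WT range in chr17:3346621-3347209 (plus strand), where all 3 probes fell, by 1.29 to 1.34. In chr3:34856791-34869544 all 3 fell, by 1.41 to 1.74, and it was the TgproNGF#3 mouse nearest to the WT mice.

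**Figure D5:**
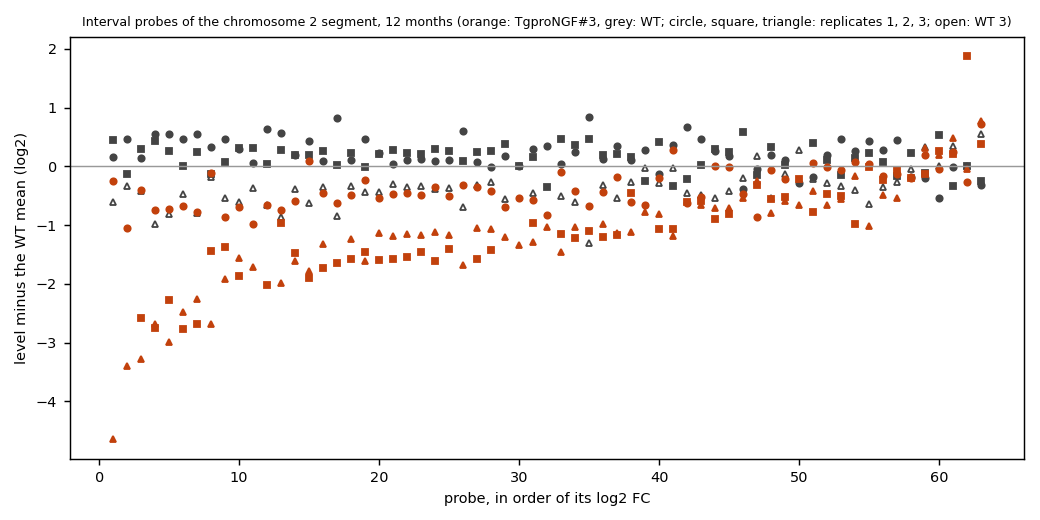
Levels minus the WT mean (log2) of the interval probes in the window of chromosome 2, ordered along the x axis by their log2 FC, for the 6 arrays of 12 months (circle, square and triangle for replicates 1, 2 and 3). TgproNGF#3 replicates 2 and 3 lie below all WT arrays in 40 of 48 probes, and TgproNGF#3 replicate 1 is within the WT range in 32 of 59. The window was picked for its called falls.

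Coding genes next to each other were sometimes called together. Of 249 called genes placed in the gene order, 41 had another called gene among the 2 tested genes on either side, in 23 pairs of which 14 went the same way. They include Slc6a13 and Slc6a12, S100a8 and S100a9, Steap3 and C1ql2, and the transcription factor genes Zic1 and Zic4. No such share over all genes is given here. Of the 250 genes with a called probe 180 were called down only, which by itself favours pairs of the same direction. Some pairs are genes of 1 family, such as Trim12a and Trim12c, and whether a probe binds both was not checked. Zic1 read 0.98, 0.07 and -1.20 in TgproNGF#3 and 1.08, 1.25 and 1.35 in WT mice, and Zic4 -3.16, -4.73 and -6.03 against -3.21, -3.03 and -3.05. In both TgproNGF#3 replicate 3 was lowest and replicate 1 near the WT mice. Zic1 is a marker of the thalamus and habenula, of which 12 were tested with a median of 0.16 and no other call. Its call was lost without TgproNGF#3 replicate 2 (-1.34), TgproNGF#3 replicate 3 (-0.71), WT replicate 2 (-1.27) or WT replicate 3 (-1.22). In 9 pairs the calls went opposite ways, as for Vill, which fell, and Itga9, which rose by 1.20.

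Neuronal genes changed little. Of 29 genes of GABAergic interneurons 27 were higher, and only Crhbp, which binds corticotropin-releasing hormone, was called (1.04). It read -0.30, -0.30 and -0.14 in TgproNGF#3, -1.65 and -1.70 in WT replicates 1 and 2 and -0.53 in WT replicate 3, and was not called without TgproNGF#3 replicate 3 (0.99), WT replicate 1 (0.86) or WT replicate 2 (0.84). The median of the list was 0.48, and 0.12 against WT replicate 3. The neuropeptides Vip and Sst had log2 FCs of 0.90 (standard error 0.261) and 0.82 (0.293). The cannabinoid receptor Cnr1 had 0.86 (standard error 0.244), and the GABA-synthesizing enzymes Gad1 and Gad2 had 0.58 (0.234) and 0.48 (0.237). Against WT replicate 3 alone the differences were smaller, at 0.34 for Vip, 0.17 for Sst, 0.39 for Cnr1, 0.24 for Gad1 and 0.025 for Gad2. Pvalb, the calcium-binding protein of fast-spiking interneurons, had 0.34 on the brighter probe (2.16, 2.15 and 2.43 in TgproNGF#3, 1.87, 1.74 and 2.11 in WT mice, standard error 0.159), and Calb1, calbindin, had 0.73 (standard error 0.218). Of 11 core genes of perineuronal nets, the matrix coats around such interneurons, 0 were called and the median was 0.03. Their main proteoglycan Acan read -4.14, -4.34 and -3.98 in TgproNGF#3 and -3.78, -3.61 and -3.79 in WT mice. Every TgproNGF#3 mouse was below every WT mouse for Acan, and the log2 FC of -0.42 (standard error 0.149) was under the fold threshold.

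The chloride transporters Slc12a2 and Slc12a5 had log2 FCs of -0.15 (standard error 0.167) and 0.33 (0.156, brighter probe), and Bdnf one of 0.19 (0.147). The sign for Slc12a2 turned, to 0.0019, when the arrays were aligned to their medians. Of 29 genes induced by growth factors or neuronal activity none was called and 27 were higher, with a median of 0.28 that differed between mice: -0.27, 0.43 and 0.76 in TgproNGF#3 and 0.04, 0.12 and -0.15 in WT mice. The activity-induced Fos read -4.09, -1.34 and -0.67 in TgproNGF#3 and -2.22, -1.77 and -3.27 in WT mice, and Arc 1.20, 2.72 and 3.06 against 2.36, 2.64 and 1.62. TgproNGF#3 replicate 1 was the lowest of the 6 for both. The synaptic vesicle protein Syt10 was at -2.19 in TgproNGF#3 replicate 2 alone and between 0.51 and 2.01 in the other 5 mice. No gene was called among 104 voltage-gated channels, 25 glutamate receptors, 14 GABA-A receptor subunits, 17 genes of acetylcholine synthesis and receptors and 17 astrocyte genes, whose medians lay between 0.02 and 0.17. The 22 oligodendrocyte and myelin genes gave 0 calls and a median of -0.19, and the 79 subunits of oxidative phosphorylation 0 calls and a median of 0.14, with 74 higher, which shrank to 0.04 against WT replicate 3. Of 12 dentate granule neuron genes 1 fell, C1ql2 (-1.05), a synaptic organizer of mossy fibres, with -1.85, -2.54 and -2.41 in TgproNGF#3, -2.28 in WT replicate 3 and -0.57 and -0.81 in the other WT mice. Against WT replicate 3 alone its difference was 0.01, and C1ql2 was called neither without TgproNGF#3 replicate 2 (-0.91) or 3 (-0.98) nor without WT replicate 1 (-0.72) or 2 (-0.84).

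The falls at 12 months were set against the younger mice through the difference of the 2 log2 FCs in 1 limma fit. In it, sex and slide go with age and cannot be told apart from it. From 3 to 12 months the log2 FC differed at an adjusted p below 0.05 for 1301 of 32427 probes (4.01%), 1049 of them higher and 252 lower at 12 months. The split depended on the processing, with 936 higher and 783 lower after quantile normalization and 738 and 374 with dim spots kept. Aligning the arrays to their medians moved it the other way, to 1210 higher and 165 lower. With single arrays of 12 months left out the count was lowest without WT replicate 2 (663) and also fell by more than 1.5 times without WT replicate 1 (734), TgproNGF#3 replicate 2 (746) or TgproNGF#3 replicate 3 (792). Of 319 probes called down at 12 months and tested, 73 were among the 1301, and of 104 called up 18. At 3 months itself, 27 of the 319 were also called down and 28 were called up, and of the 104 called up 2 were called up and 11 down. Leptomeningeal markers went in opposite directions at the 2 ages, with a median log2 FC of 0.60 at 3 months and -0.83 at 12 months, and 8 of 19 differed. Of the collagens 6 of 34 were lower at 12 months and 1 higher, of the MHC genes 4 of 31 lower. Over all 15404 genes 0.961% were lower and 2.48% higher. Col3a1, for example, had a log2 FC of 0.76 at 3 months and Vill of 1.03. Between 1 and 12 months no probe passed the adjustment in limma (2134 of 34019 at an unadjusted p below 0.05), but 43 did without TgproNGF#3 replicate 1 and 152 without WT replicate 3.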

How the data were processed

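Cy3-labelled hippocampal RNA had been hybridized by the authors, 1 sample per array, to Agilent 8X60K mouse arrays, and spot intensity was read with Agilent Feature Extraction 10.7.3.1. The deposited intensity values are background-subtracted by the authors' software. The authors also deposited log2 values, used as an alternative. Here only non-control spots that were well above background and no outliers were kept, and log2 intensity minus the array's 75th percentile was averaged per probe. Probes with at least 2 values per genotype were compared with limma 3.58.1 (lmFit, eBayes, two-sided) in R 4.3.3. A row or replicate block, single arrays left out, and other scalings, corrections and filters were tried. In simulated data for the same comparison and 34064 probes, a log2 change of 2 was put into 200 probes. Of these, 99.5% were recovered, and 0.44% of the others were called. How often unchanged probes are called on the study's own arrays was not tested.

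Symbols came from RefSeq accessions and, for 36 probes, the study's probe list (28097 of 55681 probes, 50.5%). Spots well above background made up 62.1% to 67.7% of each TgproNGF#3 array and 60.7% to 64.9% of each WT array, and 3 arrays per group limit the precision. The labels do not say that mice came from separate litters. Genes are named as the 10 largest rises and falls, up to 4 called members per list, defining markers, genes the study names, and multi-probe targets; some genes that this rule takes are not reported here. The comparison, its members and the gene lists were chosen with earlier results of these data known.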

Additional observations from a re-analysis of the deposited data

Results flagged for a closer look

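The log2 FC at 12 months differed from that at 3 months for 1301 probes (limma interaction, adjusted p below 0.05), and 10 of them are given here, while further genes named in the report are also among them. The difference was -4.11 (standard error 0.511, adjusted p = 0.00113) for Vill, from 1.03 at 3 months to -3.08 at 12 months. It was -3.47 for H2-Ab1, -2.56 for Col3a1, -2.47 for Asgr1 and -2.19 for Slc6a13, which were all higher in TgproNGF#3 mice at 3 months. In the other direction it was 1.97 for Fgf10, 2.29 for Pde5a, 3.03 for Eif2s1, 3.45 for Polr1b and 3.51 for Sdc4, with limma adjusted p-values from 0.00961 to 0.0418. Against WT replicate 3 alone the 12-month rises of Fgf10, Eif2s1, Polr1b and Sdc4 (0.73) were below the fold threshold, as was the fall of Slc6a13. A second Eif2s1 probe was not called at 12 months. Most of the 10 genes were named for their 12-month values, which also enter these differences.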

How the results depend on the processing

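Probes called (444; 106 up, 338 down) numbered 1337 with dim spots kept (200 up, 1137 down), 197 with normexp (42, 155), 198 with the array row as a block (18, 180), 146 with an ordinary t-test (15, 131), 1608 at a 1.5-fold threshold (395, 1213) and 0 at an adjusted p below 0.05 (0, 0). Aligning arrays to their median gave 195 up, 44.6% of calls against 23.9%, and moved the median of all probes to 0.155 (-0.115 with dim spots kept). The authors' log2 values gave 63 up. Leaving out single arrays gave 221 to 995 calls (25 to 312 up, 177 to 683 down), 663 to 1621 probes that differed between 12 and 3 months, and 0 to 152 between 12 and 1 month. With the replicate number as a block 447 were called. Deviations of same-numbered arrays correlated by -0.0391, -0.316 and 0.0503, so the numbers do not pair the mice. The highest correlations between genotypes, 0.431 and 0.336, were those of TgproNGF#3 replicate 2 with WT replicate 1 and of TgproNGF#3 replicate 3 with WT replicate 2, which share an array column of the slide, and the part of the column was not tested. Of 444 calls, 78 kept their call with the row as a block and 14 changed sign. List medians moved with the row as a block to -0.22 (ependyma), -0.10 (microglia), -0.0007026 (MHC), -0.14 (interferon), 0.12 (GABAergic) and 0.038 (oxidative phosphorylation). With median alignment, quantile normalization and the authors' values the last became 0.29, 0.061 and 0.063, and microglia were at -0.033 with the first and -0.26 with the last. Signs turned for C1ql2 (0.00996) and Vgf (-0.19) with the row as a block, Slc12a2 (0.0019) and Thy1 (0.0905) with median alignment, and Myc (-0.022) with normexp. Without TgproNGF#3 replicate 2 they turned for Arc (-0.08), Syt10 (0.54) and Thy1 (0.021), and without TgproNGF#3 replicate 3 for Arc (-0.25), Egr1 (-0.14), Egr2 (-0.023) and Fos (-0.30). Without WT replicate 3 the sign turned for Arc (-0.18) and Fos (-0.041). Over all single arrays left out the log2 FC ran from -0.25 to 0.68 for Arc, -0.14 to 0.64 for Egr1, -0.023 to 1.73 for Egr2, -0.30 to 1.41 for Fos, -1.555 to 0.54 for Syt10 and -0.11 to 0.021 for Thy1. The cause of these changes was not tested. The alternatives for the differences between ages were chosen after seeing the data. Signal near background limits genes such as Omd, Mfap5 and Mdfi.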

Other observations

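The 3 cytokine and chemokine genes called up, of 44 tested, were Gm1987, Ccl17 and Tnfsf15, and Pf4 was called down. Tnfsf15, a ligand of the tumour necrosis factor family, read -3.21, -3.57 and -3.03 in TgproNGF#3 and -4.83, -4.13 and -3.91 in WT mice (log2 FC 1.02, standard error 0.263). Anpep, an aminopeptidase of pericytes and fibroblasts, fell by 1.47 with WT mice between -1.56 and -1.21 and TgproNGF#3 mice between -3.84 and -2.10, while the 16 genes of pericytes and smooth muscle had a median of -0.17. Of 24 reactive astrocyte genes 2 fell, Cd109 (-1.37) and the sphingosine kinase Sphk1 (-1.05). All 14 heat shock and glucocorticoid genes were uncalled, with 13 higher and a median of 0.24. Each of the 82 ribosomal protein genes was uncalled too, with a median of -0.01. The pituitary hormone Prl, named after its values were seen, fell by 1.89 beside Gh, with overlapping groups.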
